A study of Triticum aestivum with 9 samples.

Results

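An array of 19 heat-induced genes on the chromosomes of wheat group 3 was described together with the genes around it. Members were all transcripts of genes whose identifier number lies between 112000 and 114500 on chromosome 3A, between 129300 and 132300 on 3B, or between 113700 and 116400 on 3D. These ranges hold 117 of the 133744 annotated transcripts and 84 of the 107891 genes, with 26 genes on 3A, 31 on 3B and 27 on 3D. The ranges had been drawn around rows of adjacent genes chosen by their rise in FPKM and count with heat, so that rise is a description here, and the calls of the fit printed for it are read as no evidence. Bread wheat (Triticum aestivum) cultivar Chinese Spring was raised in a greenhouse and then adapted to 20 °C in growth chambers, and plants with filling grains were moved for 1 h to 30 °C (mild heat) or 40 °C (severe heat) or stayed at 20 °C (control). Grains of 3 plants per temperature gave 9 RNA samples, so plants of 1 cultivar at 1 exposure time are what the values speak for.

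Tandem arrays are rows of neighbouring genes that arose by local duplication, and their copies often stay alike in sequence. Bread wheat is a hexaploid with A, B and D subgenomes, so a row of genes can occur once on each of the chromosomes of a group, with its own gains and losses of copies. When plants meet heat, heat stress transcription factors rapidly switch on many genes, among which those for molecular chaperones, the proteins that keep other proteins from clumping, are the best known. The files pair the member identifiers with no gene names or functions, so the genes are called by identifier, and no role is given to any of them.

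The total expected count (the estimated number of fragments on all transcripts, from RSEM) lay between 15778561 and 19497182 per sample, with a median of 16649548. A count of 0 allows up to 3 fragments, which is a share of 0.19 CPM in the smallest library (counting error only). Set against counting noise, the 9 pairs of plants at the same temperature differed with a chi-square per degree of freedom between 6.94 and 19.8, so no pair was merged. Levels are given as FPKM (fragments scaled to transcript length and library size). In RNA from whole grains, fewer cells of a type and less RNA per cell cannot be told apart.

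The members fell into a tight group of strongly rising genes and a surrounding set that moved little. A member was called an array gene when its summed FPKM at 40 °C, as the mean of 3 plants, was at least 1 and at least 4 times that at 20 °C (0.1 added to both). This limit uses the readout of the rule. It gave 3 array genes on 3A, 8 on 3B and 8 on 3D, and left 65 flank genes, with 23 on 3A, 23 on 3B and 19 on 3D. The limit fell into a wide gap, because the array gene with the smallest rise, TraesCS3B02G131200, was 23.5 times higher at 40 °C. The nearest genes outside it were TraesCS3B02G129600, at a ratio of 2.6 but with a mean FPKM of only 0.16 at 40 °C, and TraesCS3A02G113500, at 2.52. Among the 44382 genes of the whole table with a mean FPKM above 1 at some temperature, 3.19% passed the same limit.

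In order of identifier, the array genes stood side by side. TraesCS3A02G112900 to TraesCS3A02G113100 formed an unbroken row of 3 genes, and TraesCS3D02G114700 to TraesCS3D02G115400 an unbroken row of 8. On 3B a row of 3 genes, TraesCS3B02G130300 to TraesCS3B02G130500, was parted from a row of 5, TraesCS3B02G130900 to TraesCS3B02G131300, by 3 genes that were nearly silent. Of these, TraesCS3B02G130600 and TraesCS3B02G130800 had no fragment in any sample, and TraesCS3B02G130700 had an FPKM of 0.15 and 0.14 in 1 control plant and 1 plant at 40 °C and 0 in the others. The whole table held 18 rows of at least 3 adjacent genes past the limit, and 4 of them are the rows named here. The 8 genes on 3D were the longest of the 18. Order by identifier gives neighbours but not distances, since no genome of this build was used. The word array therefore rests on place and response, and how alike the genes are in sequence was not analysed here.

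**Figure D1:**
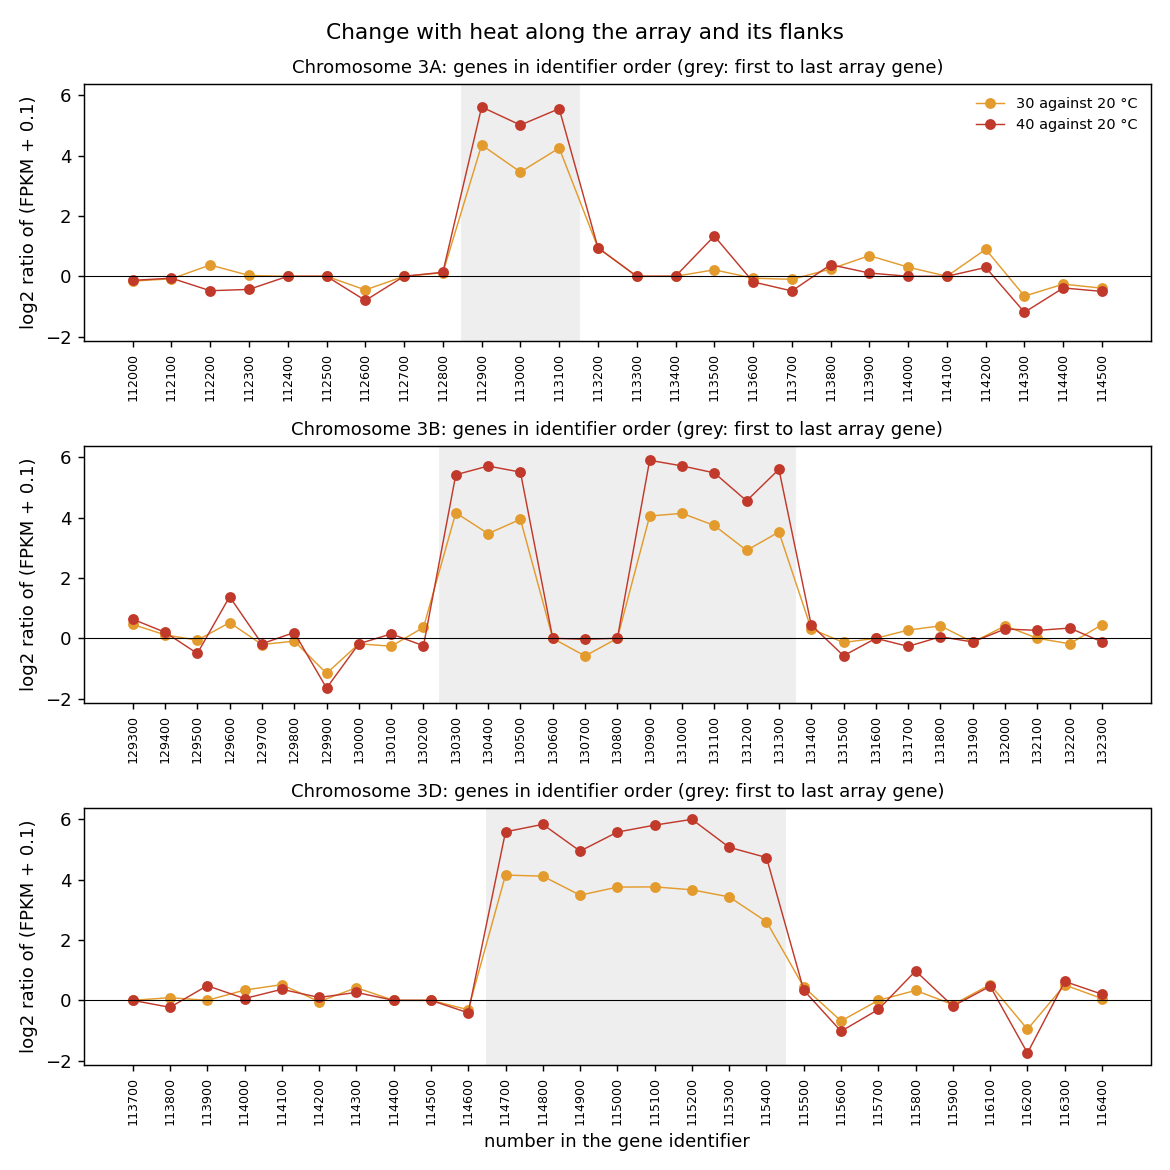
Log2 ratio of mean FPKM (0.1 added) at 30 °C (orange) and 40 °C (red) to that at 20 °C, for every member gene in order of identifier on 3A, 3B and 3D, with grey from the first to the last array gene. The 19 array genes stand far above 0 at both temperatures, the row on 3B is broken by 3 nearly silent genes, and the change ends from one gene to the next at each edge.

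As a whole, the array took a rising share of all expected counts with heat but stayed a small part of them. Its genes took 0.0163%, 0.0163% and 0.0134% of all expected counts in the plants at 20 °C. The 30 °C plants had 0.221%, 0.212% and 0.225%, and the 40 °C plants 0.703%, 0.688% and 0.574%. The groups of plants did not overlap. Summed over the 19 genes, the level averaged 292 ± 34.7 for control, 4109 ± 110.4 for 30 °C and 12533 ± 1354 for 40 °C plants (SD, n = 3 per temperature), which is 14.1 times the control level at 30 °C and 42.9 times at 40 °C. The flank genes together gave 253, 255 and 254 FPKM at 20 °C, 279, 277 and 280.2 at 30 °C, and 264, 253 and 237 at 40 °C. In the control plants the 65 flank genes and the 19 array genes thus had summed levels of the same order.

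All 19 array genes had fragments in every control plant. The median of their mean FPKM was 14.6 in control plants (range 1.06 to 32.4), 217 after mild heat (range 6.94 to 539) and 671 after severe heat (range 30.6 to 1289). In the list of all transcripts ordered by mean FPKM, the array gene of median place was number 6069 at 20 °C, number 423 at 30 °C and number 179 at 40 °C. The highest, TraesCS3B02G130300, reached place 108 at 40 °C, and none was among the 100 most abundant transcripts at any temperature.

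**Figure D2:**
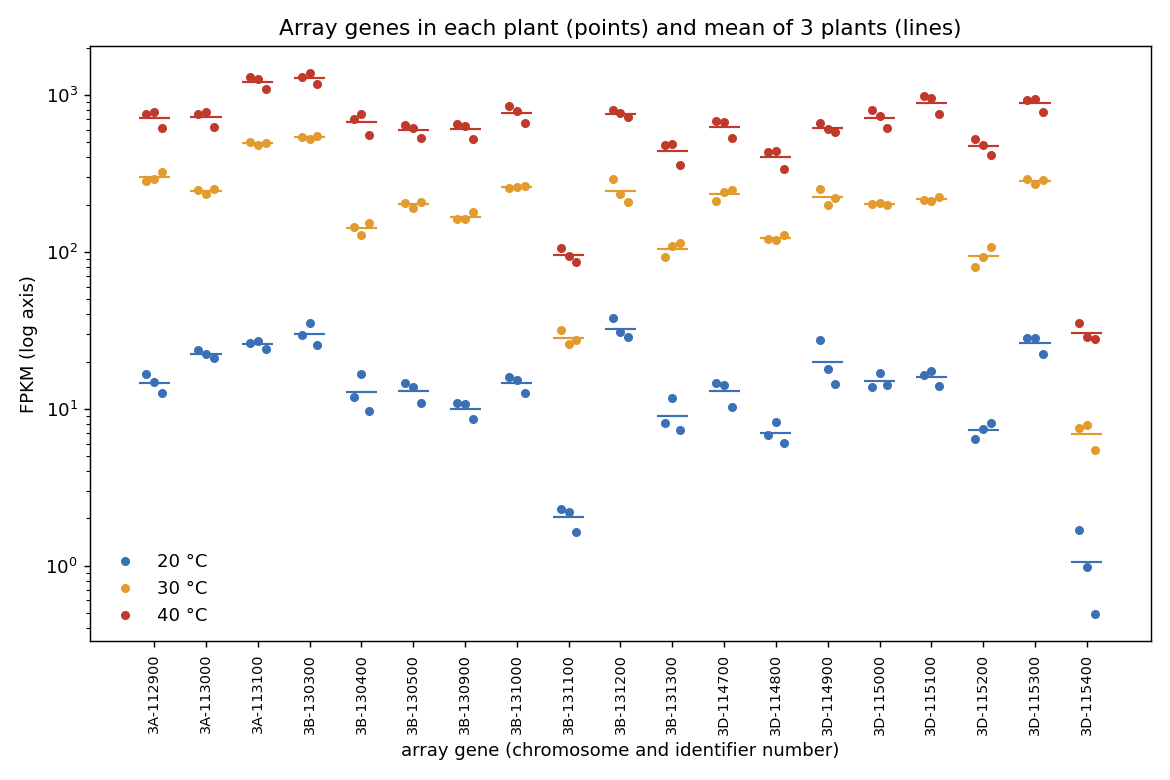
FPKM on a log axis for each of the 19 array genes, with 1 point per plant and a line at the mean of 3 plants, at 20 °C (blue), 30 °C (orange) and 40 °C (red). For every gene the 3 temperatures form separate bands, and TraesCS3B02G131100 and TraesCS3D02G115400 lie below the others at each temperature.

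On 3A the row is short, and its members were among the more abundant of the array. TraesCS3A02G112900 had an FPKM of 16.6, 14.8 and 12.6 at 20 °C, of 285, 291 and 325 at 30 °C, and of 754, 781 and 619 at 40 °C. TraesCS3A02G113000 began higher, at 23.5, 22.2 and 21.1, and had 249, 234 and 253 at 30 °C and 758, 783 and 622 at 40 °C. TraesCS3A02G113100 had 26.4, 27.2 and 24.0 at 20 °C, 501, 479.95 and 498 at 30 °C and 1301, 1262 and 1086 at 40 °C, the second highest mean of the array there. At 30 °C the outer genes of the row, TraesCS3A02G112900 and TraesCS3A02G113100, were 20.5 and 19.1 times above the control mean, and the middle one 11.0 times. These are the largest and the second largest ratio at 30 °C among the 19 genes, and at 40 °C the 3 genes stood at 49.1, 47.0 and 32.3 times.

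On 3B the first row of the array held its most abundant gene. TraesCS3B02G130300 had 29.5, 35.3 and 25.4 FPKM at 20 °C, 542, 527 and 547 at 30 °C, and 1305, 1382 and 1179.6 at 40 °C. TraesCS3B02G130400 had 12.0, 16.6 and 9.72 at 20 °C, only 145, 128 and 153 at 30 °C, and 699.7, 755 and 558 at 40 °C. TraesCS3B02G130500 had 14.5, 13.7 and 10.9 at 20 °C, 206, 189.9 and 209 at 30 °C, and 644, 614 and 530.3 at 40 °C. So the first and the second gene of this row differed in how they climbed. From 30 to 40 °C the mean of TraesCS3B02G130300 rose 2.39 times and that of TraesCS3B02G130400 rose 4.72 times.

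The second row on 3B lay beyond the silent genes. TraesCS3B02G130900 had 10.9, 10.7 and 8.57 FPKM at 20 °C, 163, 161 and 179 at 30 °C, and 651, 639 and 521 at 40 °C. TraesCS3B02G131000 had 16.1, 15.3 and 12.6 at 20 °C, 257, 259 and 265 at 30 °C, and 856, 796 and 666 at 40 °C. TraesCS3B02G131300, the last of the row, had 8.17, 11.6 and 7.34 at 20 °C, 92.4, 109 and 114 at 30 °C, and 482, 488 and 358 at 40 °C. Between them lay 2 unlike genes. TraesCS3B02G131100 was low throughout, at 2.30, 2.19 and 1.63 at 20 °C, 31.8, 25.98 and 27.6 at 30 °C and 106, 93.8 and 86.0 at 40 °C, yet its ratio of 46.7 at 40 °C was close to the array's median of 47.9. TraesCS3B02G131200 had the highest control level of all 19 genes, at 37.8, 30.6 and 28.7, with 290.4, 235 and 208 at 30 °C and 802, 764 and 721 at 40 °C, and the smallest ratio at 40 °C, 23.5.

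On 3D the first genes of the unbroken row of 8 differed in ratio, at 48.2, 57.6 and 30.9 for 40 to 20 °C. TraesCS3D02G114700 had 14.5, 14.3 and 10.3 FPKM at 20 °C, 210.4, 241 and 247 at 30 °C, and 682, 673 and 529.9 at 40 °C. TraesCS3D02G114800 was lower, with 6.82, 8.18 and 6.04 at 20 °C, 120.4, 119.6 and 129 at 30 °C, and 433, 443 and 337 at 40 °C. TraesCS3D02G114900 scattered most among the control plants of the better detected genes, at 27.4, 18.1 and 14.3, and had 252, 199.7 and 219 at 30 °C and 666, 605 and 577 at 40 °C. The next genes stood at ratios of 47.9 and 56.2. TraesCS3D02G115000 had 13.8, 16.97 and 14.1 at 20 °C, 203, 204 and 200.5 at 30 °C and 799, 737 and 612 at 40 °C. TraesCS3D02G115100 had 16.4, 17.4 and 13.95 at 20 °C, 215, 212 and 223 at 30 °C and 981, 952 and 752 at 40 °C.

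The last genes on 3D included the one with the largest ratio and the one with the lowest level of the array. TraesCS3D02G115200 had 6.43, 7.42 and 8.08 FPKM at 20 °C, 79.8, 93.3 and 108 at 30 °C and 522, 482 and 412 at 40 °C, and its ratios of 64.6 at 40 to 20 °C and 5.04 at 40 to 30 °C were the highest of the 19. TraesCS3D02G115300 had 28.4, 28.1 and 22.3 at 20 °C, 291, 269 and 289 at 30 °C and 928, 945 and 778 at 40 °C. TraesCS3D02G115400, at the edge, had only 1.70, 0.98 and 0.49 at 20 °C, 7.54, 7.84 and 5.43 at 30 °C and 35.0, 28.8 and 28.0 at 40 °C. Its control values rest on 7.11, 4.01 and 2.03 expected counts, the last of which is under 3, so its ratios of 6.56 and 28.9 are the least certain of the array.

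The edgeR quasi-likelihood fit over all tested transcripts gave the fold changes with their errors. A transcript was called when its FDR (false discovery rate, adjusted by Benjamini-Hochberg across the whole table) was under 0.05 and its fold change above 2 or under the inverse. All 19 array transcripts were called higher in each comparison, against 2.58% of all transcripts at 30 against 20 °C, 7.54% at 40 against 20 °C and 3.02% at 40 against 30 °C. Calls in the other direction made up 1.3%, 4.54% and 0.533% of all transcripts, and no array gene was among them. The comparisons with 20 °C chose the members, and that of 40 with 30 °C shares its samples with them, so nothing is read from these counts. The log2 fold change had a median of 3.74 (from 2.66 to 4.33) at 30 against 20 °C, 5.72 (from 4.70 to 6.15) at 40 against 20 °C and 1.78 (from 1.39 to 2.47) at 40 against 30 °C. The medians over all tested transcripts were 0.00, 0.00 and -0.03. Approximate standard errors (the fold change divided by the root of the test's F) lay between 0.13 and 0.49, between 0.15 and 0.37 and between 0.11 and 0.23. The smallest log2 fold change at 30 °C, 2.66 ± 0.49, was that of TraesCS3D02G115400, whose edgeR quasi-likelihood FDR was between 0.062 and 0.094 when any one of 4 plants was left out (20 °C replicates 2 and 3, 30 °C replicates 2 and 3).

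Every plant at 30 °C lay above every control plant in FPKM for all 19 genes, as did every plant at 40 °C above every plant at 30 °C. Of all tested transcripts, 16.1% had every plant at 30 °C above every control, 14.2% every plant at 40 °C above every control and 9.92% every plant at 40 °C above every plant at 30 °C. At 20 and 40 °C, but not at 30 °C, the same plant was lowest for most or all array genes. The summed flank FPKM was also lowest in replicate 3 at 40 °C (264, 253 and 237). At 20 °C it was not (253, 255 and 254). How many of all transcripts were lowest in these plants was not counted. At 40 °C replicate 3 was the lowest of the 3 plants for all 19 genes, with a median of 0.800 times replicate 1 and 0.830 times replicate 2. At 20 °C replicate 3 was the lowest for 17 of the 19 genes. At 30 °C the lowest plant was replicate 2 for 11 genes, replicate 1 for 5 and replicate 3 for 3. The coefficient of variation between plants had a median over the array genes of 14.6% for control plants, 5.79% after mild heat and 12.0% after severe heat.

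At 40 °C, 14 of the 18 pairs of neighbours in the order of mean FPKM overlapped in range between plants. Compared within each plant, 9 of the 18 pairs stood in the same order in all 3 plants, and the other 9 did not. The top of it read TraesCS3B02G130300, TraesCS3A02G113100, TraesCS3D02G115100 and TraesCS3D02G115300, and the bottom TraesCS3B02G131100 and TraesCS3D02G115400. The mean of the highest array gene was 30.7 times that of the lowest at 20 °C, 77.7 times at 30 °C and 42.2 times at 40 °C.

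The genes differed in how much of their climb was done at 30 °C. On the log2 scale of the fit, the change at 30 °C was between 53.4% and 75.2% of that at 40 °C, with a median of 66.7%. TraesCS3A02G112900 (75.2%), TraesCS3B02G130300 (74.3%) and TraesCS3A02G113100 (74.2%) had gone furthest at 30 °C. TraesCS3D02G115400 (53.4%), TraesCS3B02G130400 (58.9%) and TraesCS3D02G115200 (59.3%) had gone least far. The value of TraesCS3D02G115400, the low end of the range, rests on control counts of 7.11, 4.01 and 2.03. Leaving out 20 °C replicate 1 shifted its log2 fold changes at 30 and at 40 °C by 0.53 each, so its place is uncertain. The log2 fold change at 40 against 30 °C was 1.39 ± 0.11 for TraesCS3A02G112900, 1.40 ± 0.12 for TraesCS3B02G130300, 2.37 ± 0.13 for TraesCS3B02G130400 and 2.47 ± 0.14 for TraesCS3D02G115200 (approximate standard errors).

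How the summed level divided between the genes, which the rule did not fix, also moved with temperature. TraesCS3B02G130300 held 10.3% ± 0.973 of the array's FPKM in control plants, 13.1% ± 0.0953 after mild and 10.3% ± 0.520 after severe heat (SD, n = 3 per temperature). TraesCS3A02G113100 held 8.89% ± 0.556, 12.0% ± 0.126 and 9.72% ± 0.174 (SD, n = 3 each), and TraesCS3A02G112900 held 5.004% ± 0.273, 7.30% ± 0.426 and 5.72% ± 0.157. For these 3 genes every plant at 30 °C was above every plant at 20 °C and at 40 °C, and they were the only ones whose share was lower at 40 than at 30 °C without overlap. The share of 8 other genes was higher at 40 than at 30 °C without overlap, and that of 8 overlapped. TraesCS3D02G115100 went from 5.27% ± 0.0666 after mild to 7.12% ± 0.243 after severe heat, and TraesCS3D02G115200 from 2.28% ± 0.327 to 3.76% ± 0.126 (SD, n = 3 each). TraesCS3B02G131200 held the largest share in the control plants, 11.1% ± 1.15, against 5.95% ± 1.03 after mild and 6.11% ± 0.410 after severe heat (SD, n = 3 per temperature).

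**Figure D3:**
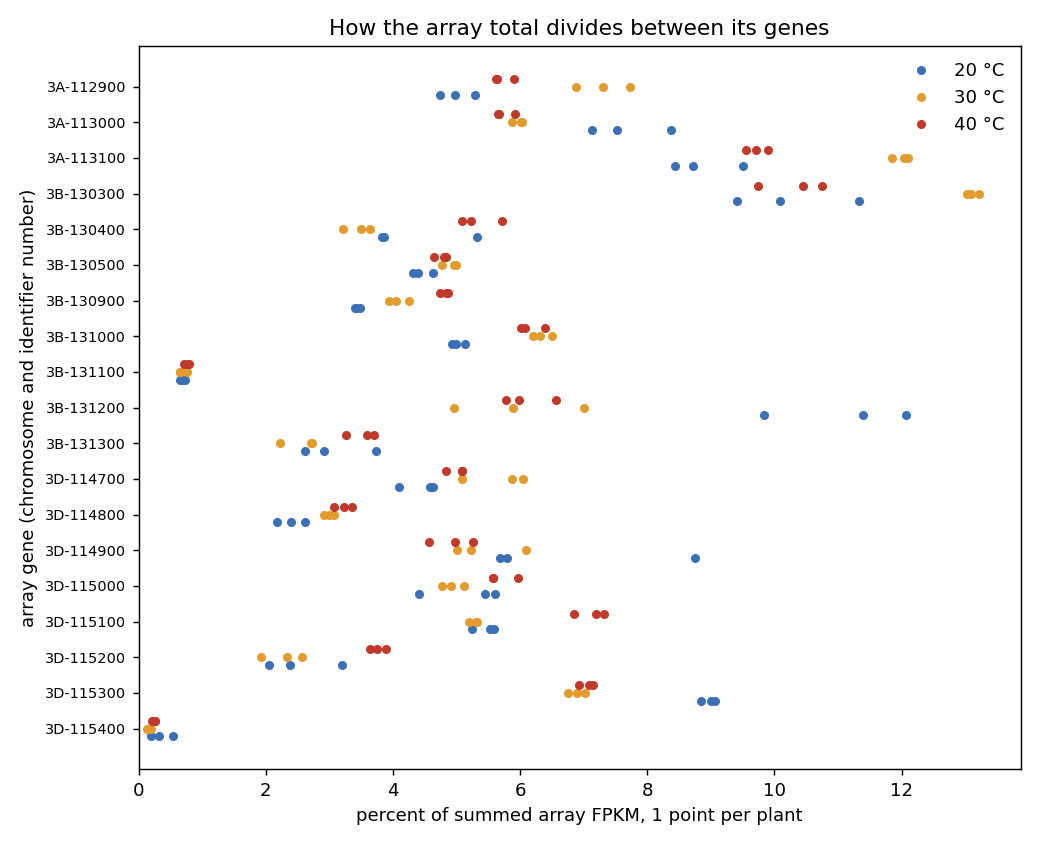
Share of the summed array FPKM held by each of the 19 genes, in percent, with 1 point per plant at 20 °C (blue), 30 °C (orange) and 40 °C (red). TraesCS3A02G112900, TraesCS3A02G113100 and TraesCS3B02G130300 have their highest shares at 30 °C, and TraesCS3B02G131200 its highest at 20 °C.

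In FPKM, shares of whole chromosomes moved with temperature on 3A and 3D but overlapped on 3B. In expected counts the mean share of 3B was larger at 20 °C than at 30 or 40 °C, so the result for 3B depends on the unit. The total of 3A partly repeats the values above, since TraesCS3A02G112900 and TraesCS3A02G113100 are among its 3 array genes. Chromosome 3A held 21.2%, 20.6% and 22.9% of the array's FPKM in the plants at 20 °C, 24.99%, 25.2% and 25.6% at 30 °C, and 21.0%, 21.4% and 21.2% at 40 °C. The plants at 30 °C stood above all others. On 3D the shares were 36.9%, 35.7% and 35.5% at 20 °C, 33.3%, 33.8% and 33.8% at 30 °C, and 37.6%, 36.8% and 36.7% at 40 °C, with the plants at 30 °C below all others. On 3B they were 41.9%, 43.7% and 41.6%, then 41.7%, 41.0% and 40.5%, then 41.4%, 41.8% and 42.1%, and the temperatures overlapped. In summed FPKM the genes on 3A were 16.5 times the control at 30 °C, those on 3B 13.6 times and those on 3D 13.1 times. At 40 °C the ratios were 42.3, 42.2 and 44.0, so the chromosomes differed less there. No p is given for these shares, because they are sums over members chosen with the values known.

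**Figure D4:**
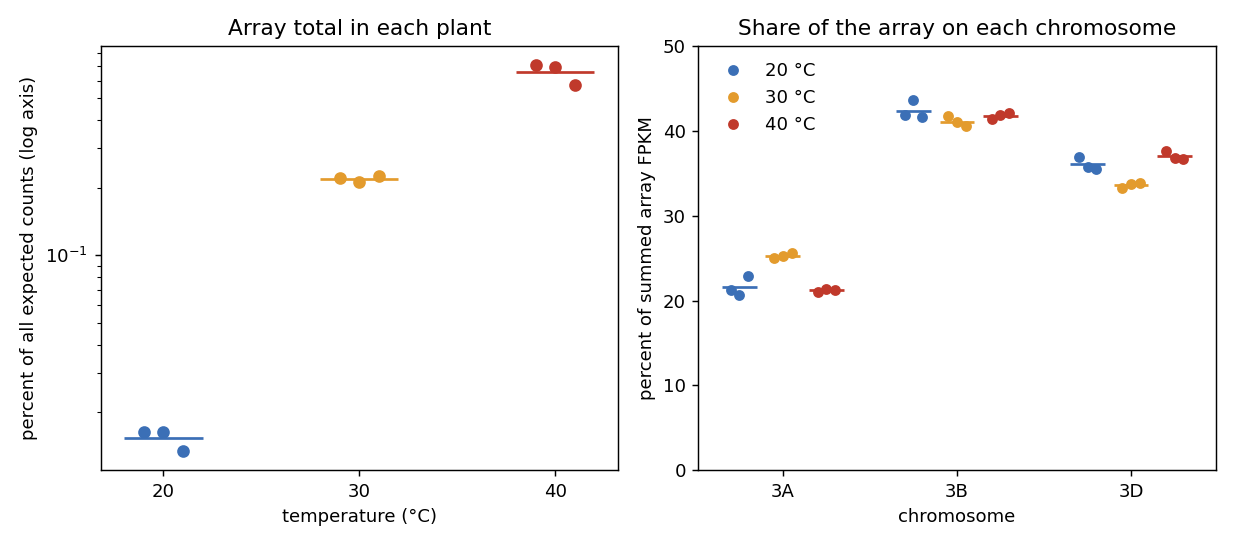
Left, share of all expected counts on the 19 array genes in percent on a log axis, 1 point per plant with a line at the mean; right, share of the summed array FPKM on 3A, 3B and 3D in percent. The array total lies between 0.0134% and 0.0163% at 20 °C and between 0.574% and 0.703% at 40 °C. The share of 3A is larger at 30 °C than at 20 or 40 °C, and that of 3D is smaller at 30 °C than at 20 or 40 °C.

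Per gene, the row on 3A was the most abundant although it is the shortest. Its mean FPKM per array gene was 20.9 ± 1.53 in control plants, 346 ± 11.9 after mild and 885 ± 94.8 after severe heat (SD, n = 3 per temperature). On 3B the means were 15.5 ± 2.10, 211 ± 6.02 and 654 ± 66.3, and on 3D 13.2 ± 1.73, 173 ± 4.65 and 581 ± 68.0 (SD, n = 3 each). At each temperature every plant's value on 3A was above every plant's value on 3B and 3D. The ranges of 3B and 3D overlapped at 20 °C and at 40 °C but not at 30 °C. Within a plant the mean per gene was higher on 3B than on 3D in 9 of 9 plants. The median array gene stood in the other order at 20 °C (12.9 FPKM on 3B, 14.0 on 3D) and at 30 °C (185 and 210). At 40 °C the medians were 637 on 3B and 622 on 3D. The order of the means of 3B and 3D holds for FPKM, as 3D held more of the array's expected counts than 3B at 40 °C.

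Features that the rule did not use were the number and length of the annotated transcripts. Each of the 19 array genes had a single transcript, as did 48 of the 65 flank genes and 84.3% of all genes. The array transcripts measured from 447 to 982 bases with a median of 772, against a median of 1491.5 for flank transcripts and 1494 for all transcripts. The 6 of under 500 bases (TraesCS3B02G130400, TraesCS3B02G130900, TraesCS3B02G131000, TraesCS3B02G131300, TraesCS3D02G114900 and TraesCS3D02G115400) all had a length that is a multiple of 3, as did 9 of the 19 in all and 51.5% of all annotated transcripts. Every flank transcript of under 500 bases (228, 264, 303, 420, 486 and 489) also had such a length, so this is not particular to the array. The share over all short transcripts was not counted. The median ratio of the 6 short array transcripts was 11.4 at 30 °C and 50.8 at 40 °C, and that of the 13 longer ones was 13.9 and 47.0. FPKM divides by the effective length of the model, so levels of short and long models are less comparable than ratios of one gene.

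None of the 19 transcripts had whole expected counts in all 9 samples (within 0.005). Of the 41 flank transcripts above 1 FPKM, only 3 had them, so this is not particular to the array. The share over all transcripts was not counted. RSEM had thus divided fragments between each array transcript and other similar transcripts. The levels of single array genes, and the shares of chromosomes, therefore depend on that division, while it moves a sum over all of them only through transcripts outside the array. Which transcripts shared fragments is not recorded in the files.

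The flanks are the members that did not pass the limit, and they held genes of ordinary level. That they did not follow the array at 40 °C was set by that limit. Of the 65 flank genes, 35 had a mean FPKM above 1 at some temperature, 19 had fragments but stayed at or under 1, and 11 had no fragment in any sample. By transcript, 41 of the 98 passed 1 FPKM, 39 had fewer and 18 had none. At the edges, the summed FPKM of TraesCS3A02G112800, just before the row on 3A, was 3.13 at 20 °C and 3.44 at 40 °C, and that of TraesCS3A02G113200, just after it, 0.58 and 1.21. On 3B TraesCS3B02G130200 stood at 1.03 and 0.85 and TraesCS3B02G131400 at 2.50 and 3.43. On 3D TraesCS3D02G114600 stood at 15.8 and 11.8 and TraesCS3D02G115500 at 1.43 and 1.83. With 0.1 FPKM added, the ratio of 40 to 20 °C was at least 23.5 within the array. In these 6 neighbours it was at most 1.92. Array and flank were parted on this same ratio, so the contrast is a description.

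Flank genes are the members left once the limit of 4 times at 40 °C had taken out the array genes. Strongly rising genes were thus removed by the same readout, and the ends of the ranges were set with values in view. The shares called and the medians below are therefore a description. At 30 against 20 °C, 1 of 41 flank transcripts tested was called (2.44%, against 3.88% of all transcripts, or 2.58% in the higher direction). At 40 against 20 °C, 3 of 40 were called (7.50%, against 12.1%). At 40 against 30 °C, 0 of 40 were called by edgeR's quasi-likelihood test (against 3.56%), with 4 at an unadjusted p under 0.05, and 2 were called by DESeq2 and 2 by the likelihood ratio test. The median log2 fold change of the flank transcripts was 0.21, 0.13 and 0.00 in the 3 comparisons.

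The flank calls were small or rested on little. TraesCS3A02G113500.1, a few genes beyond the row on 3A, had 4.09, 2.32 and 2.25 FPKM at 20 °C, 3.19, 2.48 and 4.43 at 30 °C and 7.65, 5.48 and 9.15 at 40 °C. It rose at 40 °C by 1.52 ± 0.36 on the log2 scale (edgeR quasi-likelihood FDR 2.7e-02). TraesCS3A02G113200.1 had 0.53, 0.72 and 0.49 at 20 °C, 1.10, 1.16 and 1.10 at 30 °C and 1.05, 1.21 and 1.22 at 40 °C, with a log2 fold change of 1.16 ± 0.32 at 40 °C (FDR 4.6e-02). TraesCS3A02G114300.1 was the one that fell, from 2.84, 2.23 and 2.31 at 20 °C to 1.14, 0.85 and 1.07 at 40 °C (log2 fold change -1.13 ± 0.30, FDR 3.7e-02). Each of these calls at 40 °C was lost in several fits that left out 1 plant, with FDR up to 0.091, 0.137 and 0.121.

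TraesCS3B02G129800.5, one of 6 transcripts of its gene, had 0, 0.22 and 0 FPKM at 20 °C, 1.37, 1.60 and 1.22 at 30 °C and 0, 0.96 and 0.17 at 40 °C. It was called higher at 30 °C (log2 fold change 4.04 ± 0.91, edgeR quasi-likelihood FDR 4.5e-02). With the counts of its gene summed, the log2 fold change was 0.22 (FDR 0.72), which did not pass the test. Its call was also lost in 5 of the 6 fits that left out 1 plant.

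Among the most abundant flank transcripts, TraesCS3B02G132300.2 had 28.0, 32.7 and 30.1 FPKM at 20 °C, 33.6, 42.7 and 44.3 at 30 °C and 33.4, 30.1 and 23.1 at 40 °C. Its plants at 30 °C lay above every control plant (log2 fold change 0.38 ± 0.13, edgeR quasi-likelihood FDR 0.12), and those at 40 °C overlapped with the controls. TraesCS3D02G113800.1 had 27.9, 29.6 and 27.5 at 20 °C, 27.5, 30.8 and 32.2 at 30 °C and 24.5, 24.7 and 23.1 at 40 °C. TraesCS3D02G116400.2 had 23.5, 20.6 and 20.1 at 20 °C, 30.04, 25.1 and 17.6 at 30 °C and 26.1, 25.6 and 26.9 at 40 °C. None of these was called in any of the 3 comparisons. Those at 5 FPKM or more over all samples further included TraesCS3A02G112100.1, TraesCS3A02G112600.1, TraesCS3A02G113800.1, TraesCS3A02G113900.1, TraesCS3B02G131500.2, TraesCS3B02G131900.1, TraesCS3D02G114100.1, TraesCS3D02G114600.3, TraesCS3D02G116300.1 and TraesCS3D02G116400.1. Of these, TraesCS3A02G112600.1 (log2 fold change -0.66 ± 0.18, FDR 4.7e-02) and TraesCS3D02G116300.1 (0.79 ± 0.18, FDR 2.3e-02) had an edgeR quasi-likelihood FDR under 0.05 at 40 against 20 °C with changes of less than 2-fold.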

How the data were processed

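RNA from filling grains of 3 plants at each of 20, 30 and 40 °C was sequenced. The authors trimmed reads with Trimmomatic, aligned them to the IWGSC wheat genome and deposited RSEM tables per sample, with expected counts (not normalized), TPM, FPKM and the percent of each gene's TPM on a transcript (IsoPct), and the submitters' notes name edgeR 3.24.3. The extraction text in the labels names ovarian granulosa cells, while every other label says wheat grains, and the samples were treated as grains. The grain label could not be checked by marker genes, as 0 identifiers matched the reference table. The planned heat shock lists, marker lists, promoters and proteins were therefore not used. Members, limits and lists were chosen with earlier results of these data known.

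Expected counts were rounded. Those whose FPKM averaged over 1 in at least one group of a comparison were tested after TMM scaling by the quasi-likelihood method (edgeR 4.0.16 under R 4.3.3) on the 6 samples compared, without a block. The test was tried on simulated data. Every array gene is named, as are flank transcripts called in any comparison or with a mean FPKM of at least 5. Alternatives were DESeq2 1.42.0, the likelihood ratio test, library size scaling, other filters, all 9 samples, the replicate block, gene sums, other units, other limits and leaving out each plant.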

Additional observations from a re-analysis of the deposited data

How the results depend on the processing

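Under every alternative all 19 array transcripts were called higher in the comparisons of 40 with 20 °C and of 40 with 30 °C, and at 30 against 20 °C 18 or 19 were, TraesCS3D02G115400 being the one lost (also without a filter, FDR 0.072). With 1 plant left out, the number of member transcripts called ran from 18 to 20, from 19 to 21 and from 19 to 20 in the 3 comparisons, and the array genes called from 18 to 19 at 30 °C, and 19 in each fit of the others. Over all alternatives the log2 fold changes of the array genes lay between 2.31 and 4.46, between 4.56 and 6.19 and between 1.26 and 2.57. Same-numbered plants did not deviate together (r from -0.121 to 0.141). With the replicate number as a block, 19 member transcripts were called at 30 against 20 °C, 19 at 40 against 20 °C and 19 at 40 against 30 °C, and all 19 array genes in each, while the 4 flank calls were lost. With library size in place of TMM the median log2 fold change of all transcripts was -0.14 at 40 against 20 °C and -0.16 at 40 against 30 °C, and of all calls at 40 against 20 °C 2959 were higher and 3091 lower, against 3485 and 2098 with TMM. Over the whole table, the number called at 30 against 20 °C was 1784, against 2967 by the likelihood ratio test and 906 to 2757 with 1 plant left out, and at 40 against 30 °C it was 1587 against 2404 by the likelihood ratio test.

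A limit of 2 times gave 20 array genes, and limits of 8 times or a pseudocount of 1 gave 19. With expected counts in place of FPKM, 3A held 26.1%, 30.7% and 26.2% of the array at 20, 30 and 40 °C. 3B held 38.3%, 35.8% and 35.6%, and 3D 38.2% at 40 °C. The share of 3A was again larger at 30 °C than at 20 or 40 °C. That of 3B was larger at 20 °C than at 30 or 40 °C in counts, whereas its plants overlapped between temperatures in FPKM. At 40 °C 3D stood above 3B in counts, the reverse of their order in FPKM (37.0% and 41.8%). In TPM the array summed to 3893 at 30 °C. With 1 plant left out, the share on 3A ran from 20.9% to 22.1%, from 25.1% to 25.4% and from 21.1% to 21.3%, that on 3B from 41.7% to 42.8%, from 40.8% to 41.4% and from 41.6% to 42.0%, and that on 3D from 35.6% to 36.3%, from 33.5% to 33.8% and from 36.7% to 37.2%. The shares from transcripts with whole counts alone could not be had, since no array transcript has them. Depth limits only TraesCS3D02G115400 in the controls.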
